A study of Mus musculus with 82 samples.

Results

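Of the 55272 regions that the 4 deposited ATAC-seq peak lists of this study cover together, 3783 were listed only in fibroblasts that had received RNase H1(D209N) and had been reprogrammed for 7 days. They make up 6.84% of the regions, against 10.3% (5677 regions) for those listed in Flag day 7 alone. To find them, the peaks of all lists on chromosomes 1 to 19, X and Y were merged where they overlapped or touched, and a region was kept when it shared at least 1 bp with the D209N day 7 list and none with the other 3 lists. These regions were chosen by listed presence in the 4 lists, so presence itself is no finding here. Each of the 3783 regions is a single peak of the D209N day 7 list. They form 9.42% of the 40168 regions of that list and, being short, hold 4.26% of the bases under its peaks.

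The series comprises 82 samples of mouse reprogramming, of which 8 are ATAC-seq samples in 4 groups of 2 replicates. The groups are RNase H1(D209N) at day 7, RNase H1(D209N) at day 3, Flag at day 7 and Flag at day 3. All 4 groups are OG2-MEFs (mouse embryonic fibroblasts, passage 2) infected with retroviral OSKM, the reprogramming factors Oct4, Sox2, Klf4 and c-Myc. The D209N groups overexpressed RNase H1(D209N), delivered by a pMXs retrovirus, and the Flag groups overexpressed Flag. The labels' protocols give iCD1 medium, or mESC medium with vitamin C, without saying which of them the ATAC-seq samples had. Retroviral delivery gives a mixed population in which not every cell carries every factor. A bulk list cannot tell fewer open cells from less signal per cell, and a region missing from a list may be open too, only not called as a peak. The lists hold no expression values, so the labelled cell type was not checked against marker transcripts.

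R-loops are structures in which a nascent RNA pairs with its template DNA strand and leaves the other strand single. They form often near the starts of active genes, in particular where guanines outnumber cytosines on the non-template strand. RNase H1 removes them by cutting the RNA of the hybrid, and its D209N mutant binds hybrids without cutting them. ATAC-seq reads accessible chromatin through the places where a transposase can insert adapters, such as promoters and enhancers. During reprogramming, enhancers of the fibroblast program close while those of epithelial and pluripotent cells open.

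Start windows of 5 genes under these peaks show the DNA in question. Neurod1 and Bcorl1 are the genes of the lists used below whose start window was overlapped, Kcnh5 and Dlk2 lie at wide gene-end regions, and Adamtsl2 was picked after its values were seen because no other list held a region near it. Each window is RefSeq's GRCm38.p6 sequence from 250 bases before a gene start to 50 bases after it, printed 5′ to 3′ on the gene's strand. Capitals mark the bases under the D209N day 7 peak. The windows are chr2:79456587-79456886 on the minus strand for Neurod1, chrX:48341108-48341407 on the plus strand for Bcorl1 and chr12:75177283-75177582 on the minus strand for Kcnh5. They are chr17:46297678-46297977 for Dlk2 and chr2:27079129-27079428 for Adamtsl2, both on the plus strand.
Neurod1: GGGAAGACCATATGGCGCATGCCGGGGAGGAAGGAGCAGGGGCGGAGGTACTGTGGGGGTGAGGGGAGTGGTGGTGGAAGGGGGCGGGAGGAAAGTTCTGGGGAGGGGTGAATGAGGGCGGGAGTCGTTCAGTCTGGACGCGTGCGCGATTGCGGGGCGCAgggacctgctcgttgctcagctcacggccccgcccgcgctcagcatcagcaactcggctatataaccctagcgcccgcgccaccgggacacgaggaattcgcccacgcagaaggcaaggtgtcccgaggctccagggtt
Bcorl1: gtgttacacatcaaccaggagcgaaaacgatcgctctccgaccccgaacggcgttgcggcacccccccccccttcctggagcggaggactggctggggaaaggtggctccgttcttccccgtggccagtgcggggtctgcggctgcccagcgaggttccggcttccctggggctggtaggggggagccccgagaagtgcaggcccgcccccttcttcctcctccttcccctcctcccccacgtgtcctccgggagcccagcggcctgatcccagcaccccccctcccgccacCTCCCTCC
Kcnh5: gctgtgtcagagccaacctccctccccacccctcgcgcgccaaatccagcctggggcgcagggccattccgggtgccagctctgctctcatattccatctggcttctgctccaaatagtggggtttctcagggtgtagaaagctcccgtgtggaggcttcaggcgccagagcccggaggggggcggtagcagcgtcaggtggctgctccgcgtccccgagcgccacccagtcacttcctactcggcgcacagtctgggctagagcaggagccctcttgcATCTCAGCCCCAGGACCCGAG
Dlk2: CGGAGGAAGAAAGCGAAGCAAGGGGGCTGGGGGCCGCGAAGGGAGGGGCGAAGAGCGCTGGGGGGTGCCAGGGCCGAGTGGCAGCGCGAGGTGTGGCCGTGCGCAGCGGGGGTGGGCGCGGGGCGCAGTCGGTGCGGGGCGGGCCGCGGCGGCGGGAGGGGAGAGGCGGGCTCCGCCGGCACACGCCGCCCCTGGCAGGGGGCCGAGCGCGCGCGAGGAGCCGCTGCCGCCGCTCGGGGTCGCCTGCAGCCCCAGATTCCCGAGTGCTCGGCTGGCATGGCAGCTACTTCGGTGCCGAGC
Adamtsl2: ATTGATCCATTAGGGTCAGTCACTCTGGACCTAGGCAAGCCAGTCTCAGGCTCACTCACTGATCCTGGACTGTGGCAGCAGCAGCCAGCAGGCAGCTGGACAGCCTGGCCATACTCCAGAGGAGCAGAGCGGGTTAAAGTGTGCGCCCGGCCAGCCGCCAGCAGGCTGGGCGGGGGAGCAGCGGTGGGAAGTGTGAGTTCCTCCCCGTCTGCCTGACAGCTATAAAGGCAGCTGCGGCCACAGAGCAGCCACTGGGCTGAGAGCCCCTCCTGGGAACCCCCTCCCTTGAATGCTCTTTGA
The peak covered 161 of the 300 bases at Neurod1, on the upstream side and stopping short of the start. At Bcorl1 it reached only the last 8 bases of the window, and at Kcnh5 the last 21. The printed Dlk2 window and the Adamtsl2 window lay wholly under their peaks. A second Dlk2 start has its own window at chr17:46297233-46297532, with 81 of 300 bases under the same peak. These 5 windows differ in base composition. GC content was 78.3% at Dlk2, 70.3% at Bcorl1, 66.7% at Neurod1, 65.3% at Kcnh5 and 62.3% at Adamtsl2, and the second Dlk2 window had 56%. The CpG ratio, observed CpG over that expected from the C and G content, was 0.955 at Dlk2 and 0.837 at Neurod1, against 0.275 at Adamtsl2 and 0.689 in the second Dlk2 window.

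One of the regions covered a whole microRNA hairpin, that of Mir137, a microRNA of neurons. The hairpin lies at chr3:118433857-118433929 on the plus strand and all 73 of its bases were under the peak at chr3:118433677-118434038. The hairpin of Mir129-2, at chr2:94241364-94241453 on the minus strand, lay 234 bp from the peak at chr2:94241688-94241908. The mature sequences of both, from RefSeq, follow with the seed (bases 2 to 8, the part that pairs with target RNAs) in capitals, and the 4 seeds all differ. Both were picked after their positions were seen.
mmu-miR-137-5p: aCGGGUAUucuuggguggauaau
mmu-miR-137-3p: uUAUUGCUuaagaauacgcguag
mmu-miR-129-5p: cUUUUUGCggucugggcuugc
mmu-miR-129-2-3p: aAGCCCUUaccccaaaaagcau
In all, 12 of 1005 hairpins (1.19%) lay within 1 kb of a region listed in D209N day 7 alone, and 16 (1.59%) within 1 kb of one listed in Flag day 7 alone. Hairpins overlapped by such a region numbered 1 for D209N and 4 for Flag. The Mir137 region was 2.07 kb from the nearest peak of another list, the Mir129-2 region was 3.40 kb away, and their nearest coding genes were Dpyd (128 kb) and Ttc17 (59.0 kb). The other hairpins near a region were those of Mir30a, Mir92b, Mir129b (which overlaps Mir129-2), Mir496b, Mir3086, Mir3089, Mir6346, Mir7660, Mir7662 and Mir8095.

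The lists themselves set the frame for every value below. The D209N day 7 list held 40452 peaks, the D209N day 3 list 29189, the Flag day 7 list 42439 and the Flag day 3 list 36375, with median peak widths of 489, 464, 464 and 472 bp in that order. The authors deposited 1 list per group and no score, signal or read count, so depth is unknown, no value has a replicate error and no test between groups was made. Intervals in brackets are Wilson 95% intervals of a share and cover counting error only.

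The regions listed in D209N day 7 alone were short. Their median width was 246 bp, with quartiles of 199 and 308 bp and a widest region of 1244 bp. Regions of Flag day 7 alone had a median of 243 bp and quartiles of 202 and 296 bp. The widths of these 2 sets nearly coincide, while regions in both day 7 lists and no day 3 list had a median of 411 bp and regions in all 4 lists one of 796 bp. Width bears on the rule, since a wide interval has more bases to share with another list. Only 128 of the 3783 (3.38%) were wider than the median peak of their own list, and 203 of 5677 (3.58%) were so in Flag. Regions of at least 500 bp numbered 115 (3.04%) in D209N alone and 114 (2.01%) in Flag alone, and regions of at most 50 bp 89 (2.35%) and 106 (1.87%) in the same order.

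**Figure D1:**
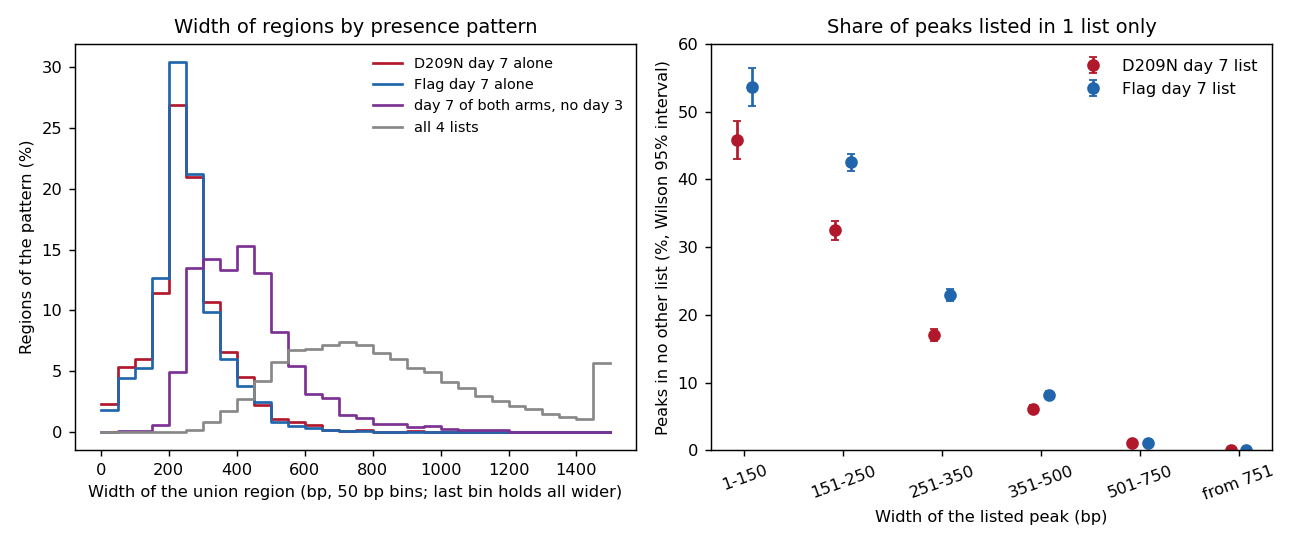
Left, width of union regions in 50 bp bins (x axis, bp) as a percentage of each presence pattern (y axis), with the widest regions gathered in the last bin. Right, percentage of listed peaks found in no other list (y axis) by peak width (x axis, bp), as points with Wilson 95% intervals for the D209N day 7 and Flag day 7 lists; for D209N the share is 45.8% in the narrowest class and 0.120% in the widest.

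Counted over the whole D209N day 7 list, the share of peaks found nowhere else depended steeply on width. Of the 1141 peaks of at most 150 bp, 45.8% (43.0 to 48.7) were listed in D209N day 7 alone. The share was 17.0% of peaks of 251 to 350 bp and 1.06% of peaks of 501 to 750 bp. Above 750 bp it was 12 of 10033 peaks, or 0.120% (0.0684 to 0.209). The Flag day 7 list had the same steep course. Its shares were 53.7% (50.9 to 56.4) up to 150 bp, 22.9% at 251 to 350 bp, 1.10% at 501 to 750 bp and 0.0517% (0.0221 to 0.121), or 5 of 9665 peaks, above 750 bp. D209N shares were below Flag shares in every class up to 500 bp. In the widest class D209N was above Flag, on 12 and 5 peaks, and the intervals overlapped.

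Most of the regions stood apart from peaks of the other lists. Their median distance to the nearest peak was 10.1 kb for Flag day 7, 14.6 kb for Flag day 3 and 19.9 kb for D209N day 3, and 8.70 kb for the nearest of the 3. The order of these distances follows the order of the peak counts of the 3 lists, so a longer list was also a nearer one. Within 100 bp of another list's peak lay 117 D209N-alone regions (3.09%), within 500 bp 342 (9.04%) and within 1 kb 523 (13.8%). Flag-alone regions stood apart much alike, at a median of 8.48 kb from the nearest of their other 3 lists, with 640 (11.3%) within 1 kb. The 19 D209N-alone regions within 10 bp of another peak are close calls of the rule. Those just inside it were chr17:26850458-26850670 near Nkx2-5, chr5:92488904-92489346 near Scarb2 and chr11:98264851-98265197 near Cdk12, each 2 bp from a Flag day 7 peak. Next came chr4:53624996-53625285 near Slc44a1, 4 bp from a Flag day 7 peak, and chr9:44709029-44709448 near Phldb1, 5 bp from a Flag day 3 peak. Just outside it were regions whose D209N day 7 peak shared a base or slightly more with another list. They were chr2:147194685-147195107 near Nkx2-2 (1 bp shared), chr16:44026245-44027038 near Gramd1c, chr17:24502447-24502662 near Traf7, chr19:3668181-3669358 near Lrp5 (2 bp each) and chr1:172665391-172665684 near Crp (3 bp). Regions kept out by at most 10 shared bases numbered 32.

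**Figure D2:**
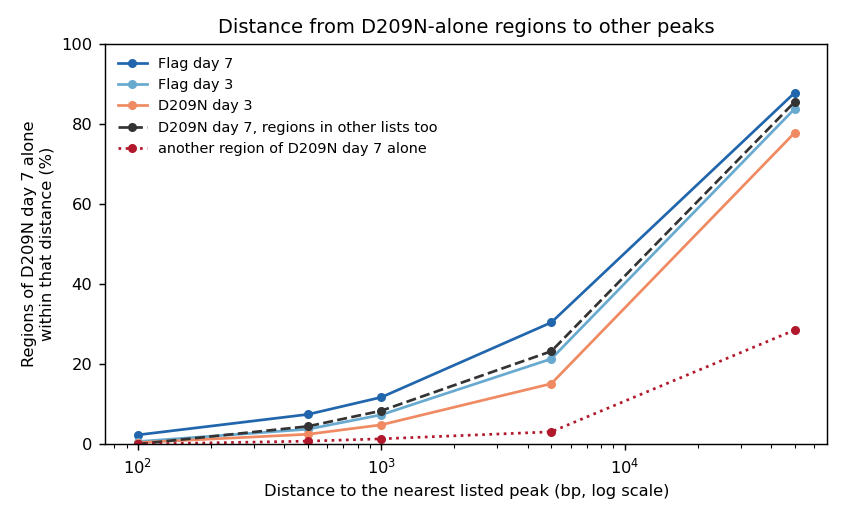
Percentage of the 3783 regions listed in D209N day 7 alone (y axis) that lay within 100, 500, 1000, 5000 and 50000 bp (x axis, log scale) of the nearest peak of each other list, of a D209N day 7 region found in other lists too, and of another region of the same set. Within 1000 bp the shares are 11.7% for Flag day 7, 7.32% for Flag day 3 and 4.81% for D209N day 3.

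Most of the regions had no other region of the same set close by. Whether their spacing differs from that of regions placed at random was not tested. The nearest other region of the same set was at a median of 117 kb, against 75.3 kb in the larger Flag set. With a limit of 25 kb between neighbours, 3166 (83.7%) had no neighbour of the same set, and 28 groups of 3 or more held 89 regions, up to 5 in a group. In Flag day 7 alone, 4285 (75.5%) had none and 98 groups of 3 or more held 316 regions. The group of 5 stretched over 64.0 kb at chr18:62740985-62805016, across the higher-coordinate end of Spink13, and no other list had a peak between its outer limits. A group of 4 over 50.5 kb at chr11:88280576-88331059, nearest to Ccdc182 and Msi2, and a group of 3 within 4.44 kb at chr4:133104147-133108588, nearest to Wasf2 and Ahdc1, likewise held no region of another list. Msi2 encodes an RNA-binding protein of stem and progenitor cells.

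By chromosome the share of regions listed in D209N day 7 alone varied around the 6.84% over all union regions. It was highest among autosomes on chromosome 4, with 281 of 3496 regions (8.04%; 7.18 to 8.99), and lowest on chromosome 14, with 119 of 2105 (5.65%; 4.75 to 6.72). The intervals of chromosomes 4 and 14 did not overlap, but both were picked as the extremes of all autosomes, so this is no test. In Flag alone they had 10.4% (9.42 to 11.4) and 9.55% (8.37 to 10.9) in that order, with overlapping intervals. The X chromosome had 64 of 1234 (5.19%; 4.08 to 6.57) and the Y chromosome 4 of 25 (16%; 6.40 to 34.7). All 4 on the Y chromosome lay between positions 90718825 and 90818538, near its distal end, where the pseudoautosomal sequence shared with the X chromosome is found.

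The peak names carry serial numbers that ascend along each list with some numbers missing, 73.0% being present in D209N day 7 and 78.5% in Flag day 7. What a missing number stands for is not given in the sources used here. Between the Flag day 7 peaks on either side of it, a D209N-alone region had no missing number in 1463 of 3775 cases (38.8%; 37.2 to 40.3). A Flag-alone region had no missing D209N day 7 number around it in 1543 of 5672 cases (27.2%; 26.1 to 28.4). Over all neighbouring peaks, 78.9% of Flag day 7 pairs and 73.4% of D209N day 7 pairs had no missing number, but the gaps that hold these regions are long, with medians of 51.0 kb in the Flag day 7 list and 48.8 kb in the D209N day 7 list. Of all 3783 regions, 729 (19.3%; 18 to 20.6) had no missing number around them in any of the 3 other lists. These 729 had a median width of 240 bp, and 76 of them (10.4%) lay at a gene end. The number of D209N-alone over Flag-alone regions was 0.666 (0.640 to 0.694) over all regions and 0.948 over those with no missing number in the other arm's day 7 list, a comparison added after the data were seen.

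The regions lay at gene ends less often than the union regions as a whole and more often than those of either day 3 list alone. Within 1 kb of an annotated end of a protein-coding gene were 338 (8.93%; 8.07 to 9.89), against 629 in Flag day 7 alone (11.1%; 10.3 to 11.9), 15.2% of regions in both day 7 lists and no day 3 list, and 46.3% of regions in all 4 lists. The share was 5.47% in D209N day 3 alone, 4.96% in Flag day 3 alone and 25.1% over all union regions. The median distance from a region's edge to such an end was 19.2 kb in D209N alone and 15.4 kb in Flag alone. It was 32.2 kb in D209N day 3 alone, 35.5 kb in Flag day 3 alone and 2.08 kb in all 4 lists. Inside a coding gene lay 53.7% (52.1 to 55.3) of the D209N-alone and 55.9% (54.6 to 57.2) of the Flag-alone regions, against 74.1% of those in all 4 lists. Measured from the centre, 539 D209N-alone regions (14.2%) and 600 Flag-alone regions (10.6%) lay more than 100 kb from any coding gene's end. The shares were 26% in D209N day 3 alone and 27.1% in Flag day 3 alone. By 4 equal classes of width, from widest to narrowest, the gene-end share of D209N-alone regions was 8.99% (7.32 to 11), 8.57%, 9.73% and 8.46% (6.85 to 10.4). Among the 128 wider than the median peak of their list it was 13.3%. In Flag alone the 4 classes had 14.2% (12.4 to 16.1), 10.5%, 9.30% and 10.4% (8.87 to 12.0). D209N was thus below Flag in 3 of the 4 classes and above it in the other, and these differences were not tested.

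Gene starts with a known strand allow the side to be read, leaving out chromosome 18, whose starts were not used here. Within 1 kb of a start lay 305 of 3650 D209N-alone regions (8.36%; 7.50 to 9.30) and 506 of 5478 Flag-alone regions (9.24%; 8.5 to 10.0). Of the 305, 88 covered the start (28.9%; 24.1 to 34.2), 82 lay upstream (26.9%) and 135 downstream, in the transcribed direction (44.3%; 38.8 to 49.9). In Flag alone, 34.4% (30.4 to 38.6) covered the start, 26.5% lay upstream and 39.1% downstream. Regions in all 4 lists covered the start in 93.4% of cases, and a wide region is more likely to reach it. Starts of long non-coding RNAs made up 33.1% (28.1 to 38.6) of the starts near D209N-alone regions, 31.0% near Flag-alone regions and 11.4% near regions in all 4 lists.

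Start windows were overlapped 166 times out of 32851 (0.505%) by D209N-alone regions and 287 times (0.874%) by Flag-alone regions. These windows were poor in CpG beside those with a region in all 4 lists. The median CpG ratio was 0.424 in D209N-alone windows, 0.481 in Flag-alone windows and 0.606 in windows of both day 7 lists. It was 0.797 in windows with a region in all 4 lists, 0.204 in windows with none and 0.384 over all windows. CpG ratios above 0.6 were found in 33.1% (26.4 to 40.6) of D209N-alone windows and 39.7% (34.2 to 45.5) of Flag-alone windows, against 78.6% in all 4 lists and 35.8% of all windows. Median GC content was 55.5% in D209N-alone windows, 58.7% in Flag-alone windows, 62.3% in all 4 lists and 52.7% over all windows. GC skew, the excess of G over C on the gene's strand as a share of both, had a median of 0.0166 in D209N-alone windows, with quartiles of -0.0783 and 0.122. It was 0.0132 in Flag-alone windows and 0.0100 in windows of all 4 lists, so the medians differed by far less than the windows within a set.

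**Figure D3:**
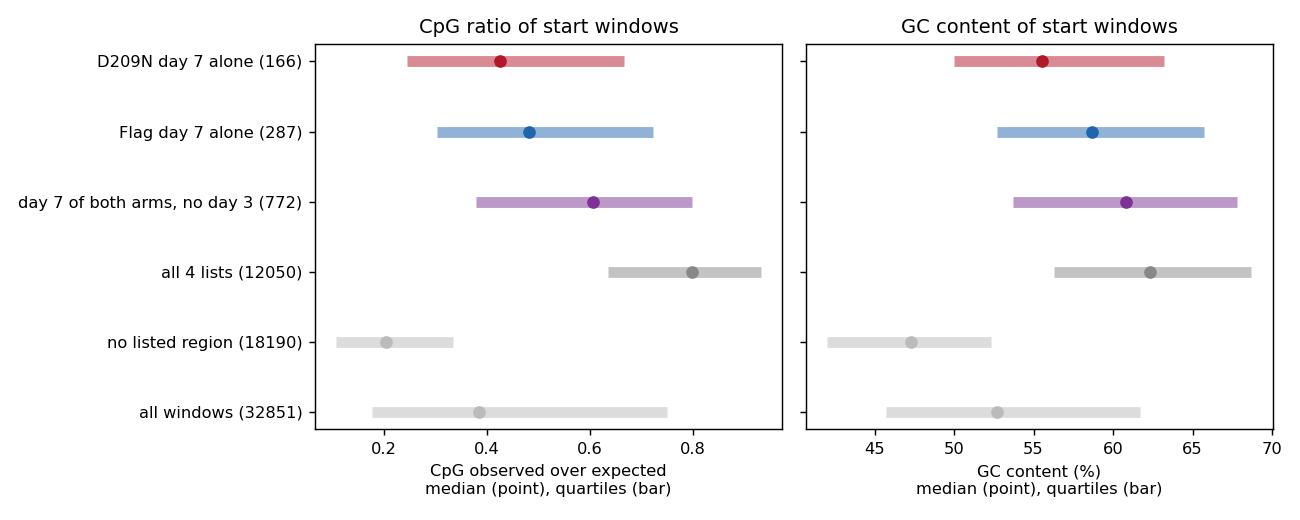
CpG ratio (left, observed over expected) and GC content (right, %) of 300-base start windows, with the median as a point and the quartiles as a bar, by the lists whose region overlaps the window; brackets give the number of windows. D209N-alone windows have a median CpG ratio of 0.424, below Flag-alone windows at 0.481 and windows of all 4 lists at 0.797.

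Short sequence motifs were counted in the same windows, on both strands, as exact letter matches that describe the windows and do not show binding. TGANTCA, the site of AP-1 factors, which are active in fibroblasts, was in 12.7% (8.43 to 18.6) of D209N-alone windows, 13.2% (9.80 to 17.7) of Flag-alone windows, 4.37% of windows in all 4 lists and 7.81% of all windows. GGGCGG, the GC box of KLF and SP factors, was in 40.4% of D209N-alone, 45.3% of Flag-alone, 69.4% of all-list and 35.7% of all windows. The CCAAT box showed more of a spread between the day 7 sets. CCAAT was in 38.6% (31.5 to 46.1) of D209N-alone windows and 26.5% (21.7 to 31.9) of Flag-alone windows, with 37.4% over all windows. TGTGGT, a RUNX site, was in 21.1% (15.6 to 27.9) of D209N-alone and 12.2% (8.90 to 16.5) of Flag-alone windows, with 16.8% over all windows. ACAAAG, a SOX site, was in 22.9% (17.2 to 29.9) of D209N-alone and 15.3% of Flag-alone windows, with 18.7% over all. For these 3 motifs the interval of D209N-alone windows took in the share over all windows, and that of Flag-alone windows lay below it for CCAAT and TGTGGT. The octamer ATGCAAA of OCT factors was in 6.63% (3.74 to 11.5) and 4.53% (2.67 to 7.59) of D209N-alone and Flag-alone windows and in 4.63% of all windows. CCGGAAG, an ETS site, was in 6.63% of D209N-alone, 5.23% of Flag-alone and 19% of all-list windows, with 8.86% over all. The other 6 of the 13 motifs searched were CACGTG of MYC (8.43% of D209N-alone and 7.32% of Flag-alone windows), the TATA box TATAAA (9.64% and 8.36% in that order), GGAATG of TEAD (15.1% and 14.3%), TGCGCA of NRF1 (6.63% and 5.57%), AAGATGG of YY1 (6.63% and 4.53%) and TGACGTC of CREB and ATF factors (1.20% and 1.74%). Over all windows these 6 were found in 7.15%, 13.6%, 14.7%, 7.76%, 6.34% and 3.21% in the same order. Each motif was counted on its own, and the GC-rich motifs vary with base composition. The 166 D209N-alone windows come from 158 genes and 154 regions. Some windows nearly coincide, while the intervals treat all as independent. A motif may also lie outside the peak, since some windows had as little as 1 base under it.

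Gene assignment, to whichever coding gene had the closest end and at most 100 kb away, placed 3244 of the regions. They fell on 2689 of 21883 coding genes (12.3%), and Flag-alone regions on 3957 (18.1%). A single region was assigned to 2244 of these genes, 2 regions to 358, 3 to 70, 4 to 12, 5 to 4 and 6 to 1. Nearly all of the genes had regions in other lists as well. Of the 2689, 2436 (90.6%) also had a region of the Flag day 7 list, 2260 (84.0%) one of Flag day 3, 2107 (78.4%) one of D209N day 3, and 1978 (73.6%) one present in all 4 lists. Most genes with a D209N-alone region thus had sites in other lists too, and genes with a Flag-alone region were alike. Genes with no other region made up 8.14% for D209N alone and 9.10% for Flag alone. The matching shares over all coding genes were not counted.

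The genes with the most D209N-alone regions were Spink13 with 6 and Gli2, Ephb2, Tgfbr3 and Mbp with 5 each. D209N-alone regions are counted among the D209N day 7 regions of a gene. A higher number in that list thus follows in part from the choice of genes, here and for every gene named below for such a region. Spink13, of the Kazal family of protease inhibitors, had 10 assigned regions in the D209N day 7 list, 4 in D209N day 3, and 3 in Flag day 7 with 5 in Flag day 3. Its 6 regions were 198 to 293 bp wide. The plot of listed peaks around 4 genes shows 5 of them in a stretch where the other lists had no peak. Ephb2, a receptor tyrosine kinase for ephrins, had 8 regions in D209N day 7, 1 in D209N day 3, and 4 in Flag day 7 with 2 in Flag day 3. Its 5 D209N-alone regions were 4.53 to 21.6 kb from any peak of another list, and the widest of them, chr4:136780214-136780706, had 493 bp. Tgfbr3, the co-receptor betaglycan of TGF-beta signalling, had 11, 6, 6 and 8 regions in D209N day 7, D209N day 3, Flag day 7 and Flag day 3. One of its 5 D209N-alone regions had 32 bp and another lay 0.138 kb from another list's peak, while chr5:107238125-107238583 had 459 bp and was 37.5 kb from the nearest. At Gli2, a transcription factor of Hedgehog signalling, both arms had regions of their own. It had 18 regions in D209N day 7, 10 in D209N day 3, and 16 in Flag day 7 with 10 in Flag day 3, with 5 in D209N day 7 alone and 4 in Flag day 7 alone. The widest D209N-alone region there, chr1:118954695-118955427, had 733 bp and was 1.04 kb from a peak of another list. Mbp, the myelin basic protein gene, had 10, 5, 8 and 8 regions in D209N day 7, D209N day 3, Flag day 7 and Flag day 3, and 3 of its 5 D209N-alone regions lay within 1 kb of another list's peak.

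**Figure D4:**
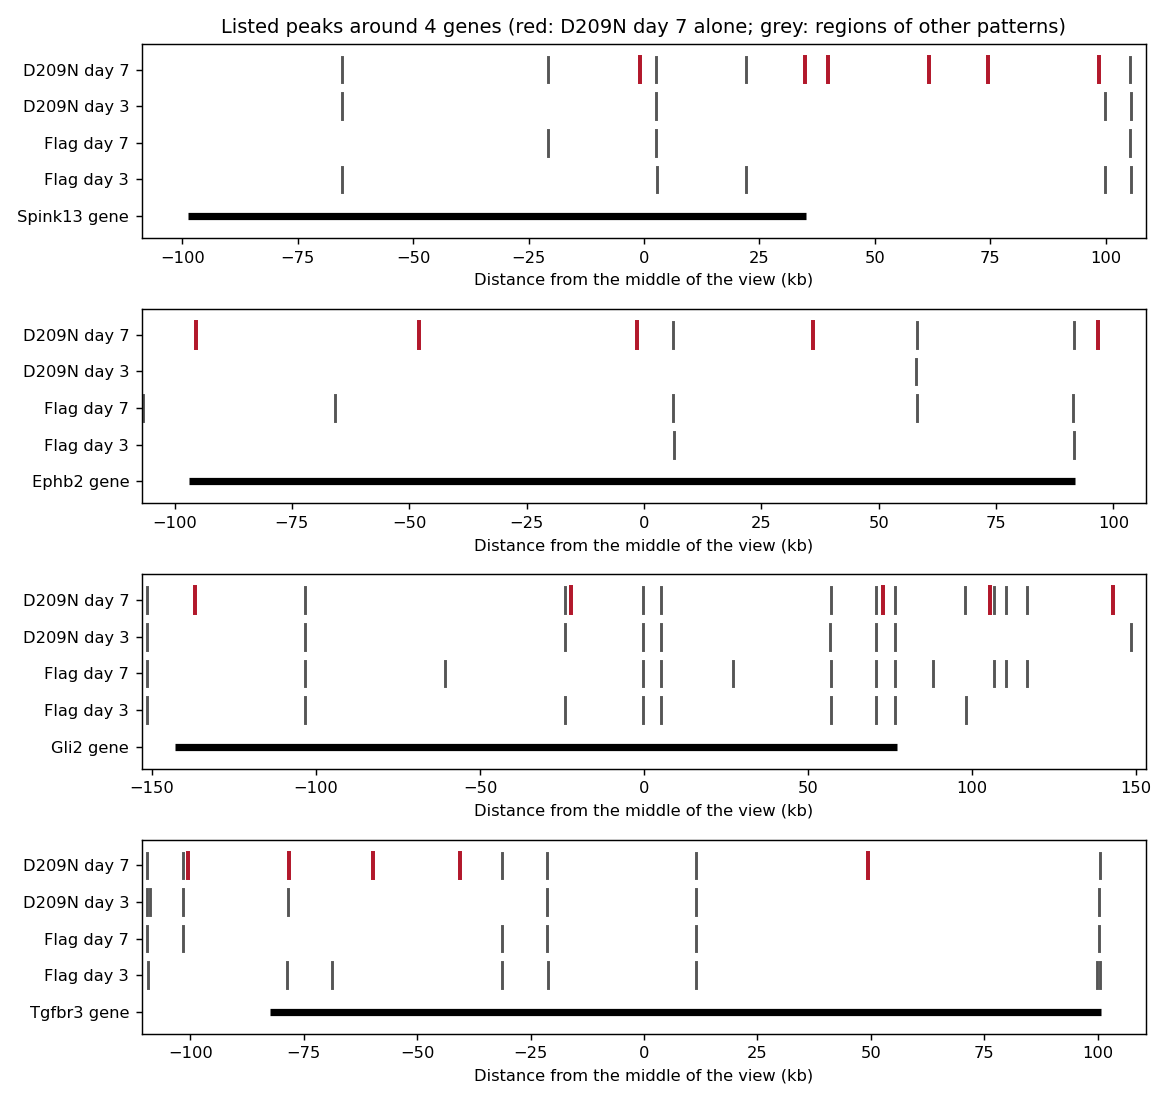
Listed peaks around Spink13, Ephb2, Gli2 and Tgfbr3 (from top), drawn as ticks at their centres by distance from the middle of the view (x axis, kb), with 1 row for each list and a black bar for the gene. Red ticks are regions listed in D209N day 7 alone (6 at Spink13 and 5 at each of the others) and grey ticks are peaks of all other regions.

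Of the 12 genes with 4 regions, the 10 with the largest summed width are given here. Plekha7, of adherens junctions, had 10 regions in D209N day 7, 4 in D209N day 3, and 9 in Flag day 7 with 7 in Flag day 3, with 3 in Flag alone. Mvb12b, a subunit of the ESCRT-I sorting complex, had 13, 1, 9 and 3 in that order, and Rbm20, a splicing regulator of muscle genes, had 14, 2, 10 and 6. At both genes D209N day 3 had the fewest regions of the 4 lists. Pabpc6, of the family of poly(A)-binding proteins, had 6 regions in D209N day 7, 1 in D209N day 3, and 2 in Flag day 7 with 2 in Flag day 3. All of its D209N-alone regions were at least 54.5 kb from the gene, so they are near it only in the absence of a closer coding gene. The rest of the 10 were Trio, Tns3 (a focal adhesion protein), Trabd2b, Btbd11, Irf2bp2 and Gm52481 on the Y chromosome. Irf2bp2 had 16 regions in D209N day 7 and 12 in Flag day 7, and Tns3 had 21 in D209N day 7 and 18 in Flag day 7. The D209N day 7 numbers take in the 4 D209N-alone regions for which each gene was chosen.

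The widest regions are those with the most bases that the other lists did not share. The first, chr19:29074857-29076100 with 1244 bp, lay 25.9 kb from Rcl1, which encodes a factor of ribosomal RNA processing, and 7.48 kb from a Flag day 3 peak. The second, chr10:38353669-38354702 with 1034 bp, was 466 kb from any coding gene (Rfpl4b) and 199 kb from any peak of another list, and overlapped the start window of the long non-coding RNA Gm40624. Neither had a missing Flag day 7 number around it. The next were at Rerg (946 bp), a Ras-like GTPase gene, Reps2 (932 bp), of endocytosis, and Trmu (814 bp), which encodes a mitochondrial tRNA-modifying enzyme. The next had a pluripotency gene as its nearest coding gene. chr12:86328903-86329696, with 794 bp, lay 31.8 kb outside Esrrb, an orphan nuclear receptor of the embryonic stem cell network, and 22.8 kb from the nearest peak of another list, a Flag day 7 peak. Thap12 (782 bp), Tns3 (781 bp), Aspscr1 (773 bp) and Kcnh5 (771 bp) completed the 10. Flag day 7 numbers were missing around 5 of these 10 regions, 3 at Thap12, 2 each at Reps2, Esrrb and Kcnh5, and 1 at Aspscr1. The Kcnh5 region, chr12:75176533-75177303, lies inside that potassium channel gene at its start and was 98.5 kb from any peak of another list.

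At gene ends, 364 coding genes (1.66%) had a D209N-alone region within 1 kb, and 676 (3.09%) a Flag-alone region. After Kcnh5, the widest belonged to Tmem255b (684 bp), Dkk2 (648 bp), Kcna1 (646 bp), Dlk2 (628 bp), Ykt6 (611 bp), Smad3 (610 bp), L3mbtl1 (595 bp), Celsr3 (594 bp) and Syt13 (590 bp). Dkk2 is a secreted regulator of WNT signalling, Kcna1 a potassium channel, Dlk2 a membrane protein related to Notch ligands, Ykt6 a SNARE protein and Syt13 a synaptotagmin. Some of these ends carried other peaks. The Kcna1 region was 0.110 kb, the Dlk2 region 0.280 kb, the Smad3 region 0.343 kb and the Celsr3 region 0.414 kb from a Flag day 7 peak, while the Syt13 region was 10.0 kb and the Ykt6 region 11.8 kb away. At Kcnh5, Dlk2 and Syt13 the D209N day 7 list had 1 gene-end region and the other 3 lists had 0; the Flag day 7 peak next to the Dlk2 region lay beyond the 1 kb window.

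Among the 555 genes of the 20 lists, 16 had a D209N-alone region within 1 kb of an end, beside 364 of 21883 coding genes (1.66%). Flag-alone regions lay at gene ends of list genes too. No list had more than 3 such genes in D209N alone or more than 3 in Flag alone. The 16 genes differ in what the other peak lists held there. At 5 of them, Pcolce, Krt19, Trp53bp1, Neurod1 and Eras, the D209N day 7 list had 1 gene-end region and each other list 0. Krt19 encodes a keratin of simple epithelia, and its region, chr11:100146075-100146299 with 225 bp, was 22.7 kb from any peak of another list. Pcolce, an enhancer of procollagen processing, had a region of 296 bp that was 2.72 kb away, and the 197 bp region of Neurod1, a proneural transcription factor, was 2.16 kb away. The region at Eras, a Ras protein of embryonic stem cells, had only 42 bp and was 5.74 kb from the nearest. The region at Trp53bp1, a DNA damage response factor, had 202 bp and was 0.931 kb away. Missing Flag day 7 numbers around these 5 regions were 2 at Pcolce, 2 at Neurod1, 1 at Krt19, 1 at Trp53bp1 and 0 at Eras. Neurog1, Bcorl1, Lef1, Sox17, Marveld3, Ehmt2 and Ocln had a gene-end region in Flag day 7 too, counted over both ends of the gene. It was at the opposite end at Sox17 and Marveld3. Their D209N-alone regions were 3.97 and 1.95 kb from the nearest peak of another list in that order. The Neurog1 region had 262 bp and was 0.0730 kb from a Flag day 7 peak. Counted over both ends, Smad3, Mdm2, Ccnd1 and Ctnnb1 had 2 gene-end regions in D209N day 7 and 1 in each other list. The D209N-alone region was 5.13 kb at Mdm2 and 9.91 kb at Ccnd1 from the nearest peak of another list. At Mdm2 and Ccnd1 the gene-end regions of the other lists thus lay at the opposite end. The D209N-alone regions of Smad3 and Ctnnb1 were 0.343 and 0.245 kb from a Flag day 7 peak in that order. Smad3 transmits TGF-beta signals, Ctnnb1 is beta-catenin of WNT signalling, Ccnd1 is cyclin D1 and Mdm2 the ubiquitin ligase of p53. Their extra regions had 610, 220, 283 and 352 bp in that order.

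**Figure D5:**
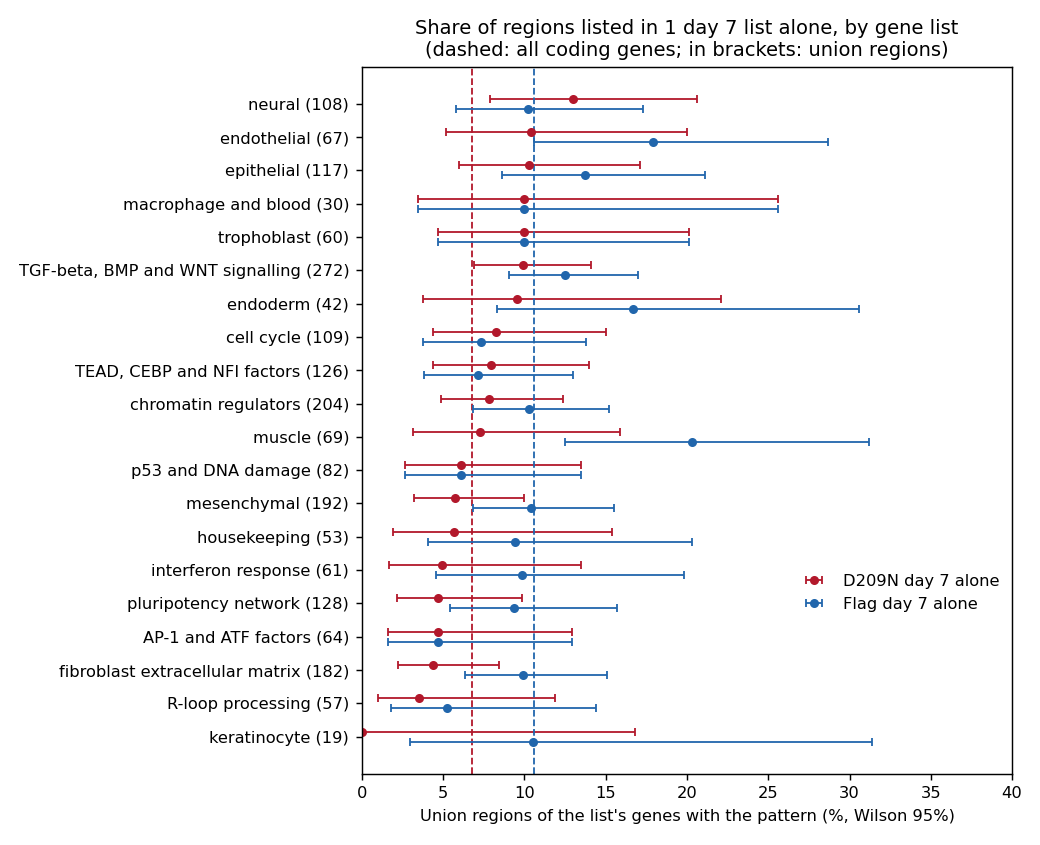
For each gene list, the percentage of its assigned union regions that were listed in D209N day 7 alone (red) or Flag day 7 alone (blue), as points with Wilson 95% intervals (x axis); brackets give the number of union regions. Dashed lines mark all coding genes, at 6.75% for D209N alone and 10.6% for Flag alone; the neural list is highest for D209N, at 13.0%.

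The list shares depend on how many regions a gene has, so each is given per gene, beside 12.3% of all coding genes, and per region, beside 6.75% (6.53 to 6.98) of the 48051 assigned regions. Per region, Flag day 7 alone made up 10.6% over all coding genes. Under this assignment the neural list had the highest D209N-alone share of the 20 lists, per gene and per region, and per region it also had the highest share in both day 7 lists and no day 3 list. Of 25 neural genes 11 (44.0%; 26.7 to 62.9) had a D209N-alone region and 10 a Flag-alone region, and 14 of their 108 regions (13.0%; 7.88 to 20.6) were D209N alone against 11 (10.2%) Flag alone. In both day 7 lists and no day 3 list were 27 of the 108 (25%), beside 13.4% over all coding genes. The 11 genes were Sox1, Neurog1 and Hes5 with 2 regions each and Neurod1, Olig2, Pou3f1, Ncam1, Zic1, Six3, Lhx2 and Msi1 with 1 each. All but Ncam1 (a cell adhesion molecule) and Msi1 (an RNA-binding protein) are transcription factors of neural development. Olig2 and Zic1 had no region in any other list, while Msi1 had 8 regions in D209N day 7, 1 in D209N day 3, and 8 in Flag day 7 with 2 in Flag day 3. When only regions with no peak of another list within 1 kb were kept, 7 neural genes had a D209N-alone region (28.0%, beside 10.8% of all coding genes), and within 20 kb 6 had one (24.0%, beside 8.09%). The neural list was then no longer the highest per gene. TGF-beta, BMP and WNT genes had 38.6% and 29.5% under these alternatives in the same order, and endothelial genes 33.3% and 26.7%.

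Signalling genes also carried many. Of 44 genes of TGF-beta, BMP and WNT signalling, 19 (43.2%; 29.7 to 57.8) had a D209N-alone region and 19 a Flag-alone region. Per region the shares were 27 of 272 (9.93%; 6.91 to 14.1) in D209N alone and 34 (12.5%; 9.08 to 17.0) in Flag alone. The ligands were Bmp2, Bmp4, Bmp7, Inhba, Wnt3, Wnt5a and Wnt7b, the receptors Bmpr1b and Lrp5, and the intracellular mediators Smad3, Smad6, Axin2, Ctnnb1 and the TCF/LEF factors Tcf7, Tcf7l1, Tcf7l2 and Lef1, with the extracellular WNT inhibitor Dkk1 and the transcriptional regulator Id4. Tcf7l2 had 3 D209N-alone and 3 Flag-alone regions, and Bmp7 2 and 4 in that order. Wnt5a had 2 D209N-alone regions and no Flag-alone region, with 4 regions in D209N day 7, 1 in D209N day 3, and 2 in Flag day 7 with 3 in Flag day 3.

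Epithelial genes, which switch on early in reprogramming, had D209N-alone regions at 10 of 37 (27.0%; 15.4 to 43.0) and Flag-alone regions at 14 (37.8%). Per region this was 12 of 117 (10.3%; 5.96 to 17.1) in D209N alone and 16 (13.7%; 8.60 to 21.1) in Flag alone, and both intervals take in the share over all coding genes. Cdh1, E-cadherin, had 2 of them and 6 regions in D209N day 7, against 1 in D209N day 3, and 2 in Flag day 7 with 4 in Flag day 3. Pkp3, plakophilin of desmosomes, had 2 and Krt19 had 1, and neither had a region in another list. The others were the junction proteins Ocln, Tjp1 and Marveld3, the splicing factor Esrp1, the transcription factor Grhl2, the protease St14 and the GTPase Rab25.

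The pluripotency list had a share per region near that of all coding genes. Of 40 genes 6 (15.0%; 7.06 to 29.1) had a D209N-alone region and 10 (25%) a Flag-alone region, and 6 of 128 regions (4.69%; 2.17 to 9.85) were D209N alone against 12 (9.38%; 5.44 to 15.7) Flag alone. Nanog, a core transcription factor, had 3 regions in D209N day 7, 1 in D209N day 3, and 2 in Flag day 7 with 2 in Flag day 3. Esrrb had 3, 0, 2 and 1 in that order. Dppa5a, a germ cell and stem cell gene, had its 1 region in D209N day 7. The others were Eras, Jarid2, of Polycomb repressive complexes, and Mycn. With assignment within 20 kb, 3 pluripotency genes had a D209N-alone region (7.50%, beside 8.09% of all coding genes) and 9 a Flag-alone region. The intervals of this list take in the share over all coding genes.

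Fibroblast genes had D209N-alone shares per region of 4.40% and 5.73% in 2 lists, with intervals that take in the 6.75% of all coding genes. Mesenchymal genes had D209N-alone regions at 6 of 34 (17.6%), with 11 of 192 regions (5.73%; 3.23 to 9.97), and Flag-alone regions at 14 (41.2%), with 20 regions (10.4%; 6.84 to 15.5). Of those 11 regions 5 were at Tgfbr3 and 2 at Tcf4, with 1 each at Prrx1, Tgfb3, Tgfbr2 and Acta2. Extracellular matrix genes had 8 of 37 (21.6%) in D209N alone and 13 (35.1%) in Flag alone, with 8 (4.40%; 2.24 to 8.43) and 18 (9.89%; 6.35 to 15.1) of 182 regions in that order. The 8 were the collagens Col5a1, Col6a1 and Col16a1, fibrillin Fbn1, fibulin Fbln2, tenascin Tnc, the protease Mmp14 and Pcolce. With assignment within 20 kb the matrix genes numbered 4 (10.8%) in D209N alone and 6 in Flag alone. AP-1 and ATF factors had 3 of 19 in either set, those in D209N alone being Fos, Atf3 and Maf.

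The other lists gave a mixed picture. TEAD, CEBP and NFI factors and Hippo genes had D209N-alone regions at 6 of 18 (33.3%) and 10 of 126 regions (7.94%), with 3 at Tead1 and 2 each at Lats2 and Nfib, and Flag-alone regions at 7 (38.9%). Within 20 kb these were 3 genes in D209N alone and 3 in Flag alone. Chromatin regulators had 12 of 48 (25%) in D209N alone and 11 (22.9%) in Flag alone, and cell cycle genes 8 of 38 (21.1%) and 7 (18.4%). Per region, chromatin regulators had 7.84% (4.89 to 12.4) in D209N alone and 10.3% in Flag alone. Cell cycle genes had 8.26% (4.40 to 15.0) and 7.34% in that order. Both D209N-alone intervals take in the 6.75% of all coding genes. Within 20 kb, cell cycle genes had 5 in D209N alone and 4 in Flag alone. Bcor, a Polycomb-associated corepressor on the X chromosome, had 3 D209N-alone and 8 Flag-alone regions. Genes of R-loop processing had few in either set, 2 of 33 (6.06%; 1.68 to 19.6) in D209N alone, at the helicase genes Ddx39a and Ddx1, and 3 (9.09%) in Flag alone. Of their 57 regions, 2 (3.51%; 0.968 to 11.9) were D209N alone, and within 20 kb 1 gene had one, against 3 in Flag alone. Genes of p53 and DNA damage had 5 of 28 in each set, those in D209N alone being Mdm2, Cdkn1a, Chek2, Trp53bp1 and Plk2, and 3 in D209N alone against 2 in Flag alone where no other peak lay within 1 kb. Interferon genes had 3 of 28 in D209N alone (Stat2, Ifih1 and Adar) and 4 in Flag alone.

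Marker lists of other cell types were read the same way. Endothelial genes had D209N-alone regions at 5 of 15 and Flag-alone regions at 7, with 7 (10.4%) and 12 (17.9%) of 67 regions in that order. Muscle genes had 3 of 19 in D209N alone and 7 in Flag alone, with 5 (7.25%; 3.13 to 15.9) and 14 (20.3%; 12.5 to 31.2) of 69 regions. Endoderm genes had 4 of 19 in D209N alone (Gata6, Sox7, Sox17 and Ttr) and 6 in Flag alone, trophoblast genes 3 of 18 and 6, and macrophage and blood genes 3 of 19 and 2. Keratinocyte genes had 0 of 16 in D209N alone, an interval up to 19.4%, and 2 in Flag alone. Housekeeping genes had 2 of 22 in D209N alone and 3 in Flag alone.

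A last set of genes had listed regions in D209N day 7 and in no other list. They numbered 219 of the 2689 genes (8.14%; 7.17 to 9.24), and the matching number for Flag day 7 alone was 360 of 3957 (9.10%; 8.24 to 10.0). The shares are close and the intervals overlap. Of the 219, 8 belong to the lists, namely Dppa5a, Krt19, Pkp3, Pcolce, Olig2, Zic1, Ttr and Des, and for Flag the number was 5 of 360. The lists hold 555 of the 21883 coding genes. With so few genes, no difference between the 2 sets is read from these counts. Olfactory receptor symbols numbered 11 in D209N (5.02%) and 3 in Flag (0.833%), a count made after the genes were seen, and made up 5.07% of all coding genes. Adamtsl2, a secreted protein of the ADAMTS-like family, had 2 such regions, one of them the 520 bp peak at chr2:27078978-27079497 over the start window printed above. Barhl1, a homeobox factor of neurons, and the airway and epithelial secretory gene Bpifb1 had 2 each. These last 3 genes were chosen after their values were seen.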

How the data were processed

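ATAC-seq samples of 4 groups with 2 replicates each are represented by 4 peak lists that the authors deposited, 1 per group, with chromosome, start, end and a name per interval. No score, signal or count is in them, so depth is unknown. Per the submitters' processing notes, CASAVA and Bowtie2 2.3.2 were used, with mm10 and GRCm38.p5 as builds. The peak caller, its threshold, any shift of insertion sites and the joining of replicates count as not given in the sources used here. Every name carries rep1. Lists were matched to groups by the arm and day in the peak names. The 12 mitochondrial intervals were left out.

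From these lists, union regions, overlaps (minimum 1 bp), distances and Wilson 95% intervals were computed in Python 3.11.15 with numpy 2.4.6, pandas 2.3.3 and scipy 1.17.1, and the interval steps were tested on simulated data. Figures used matplotlib 3.10.9. Genes are those of RefSeq's GRCm38.p6 table, which shares the main chromosomes of mm10 and gives outer gene ends without strand or exons. Each region was assigned to whichever coding gene had the end closest to its centre, up to 100 kb away, and groups of neighbours were chained at 25 kb. A gene-end region overlaps the 1 kb on either side of an end. Starts and 300-base windows with strand come from RefSeq's promoter table, and none on chromosome 18 was used. Of 560 list symbols, 555 were found as coding genes.

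Named genes are those of the lists with a region at a gene end, the 15 genes with the most regions, the 10 widest regions, the 10 widest at a gene end and the 5 regions on either side of the rule's edge; within the lists, genes that carry a region are named too. The members, lists and rules were chosen with earlier results of these data known. With 1 list per group there was no test. The alternatives tried were another overlap minimum, distance to other peaks, peak width, gene-end window, gene set and assignment, and the list of absence.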

Additional observations from a re-analysis of the deposited data

How the results depend on the processing

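The count of D209N-alone regions stayed between 3260 and 5557 when a distance of up to 1000 bp to other peaks was asked for, overlap was set to 25% of the peak, peaks were not merged, split names were dropped or fewer lists had to lack the region. It was 128 among peaks wider than the list's median, and 1463 with no missing number in the Flag day 7 list, an alternative chosen after seeing the data. The ratio of D209N-alone to Flag-alone regions was below 1 in every alternative: 0.631 for wide peaks, 0.617 when both lists of the other arm had to lack the region, 0.747 when only its day 7 list did, and 0.948 with no missing number. The gene-end share moved with its window, to 5.71% within 500 bp and 13.6% within 2 kb, and was 15.5% for all genes, 13.3% for wide regions and 6.87% for regions with no other peak within 1000 bp. Genes with a region numbered 1770 with assignment within 20 kb. Start windows numbered 90 when the region's centre had to lie inside. Of the 20 gene lists, 14 (assignment within 20 kb), 19 (nearest gene body) and 17 (no other peak within 1000 bp) kept a gene count within 1.5 times. Apart from fewer regions qualifying by construction, the cause was not tested. No paired analysis was possible because each group has 1 deposited list. Depth is unknown, so what it limits cannot be given.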
